A study of Homo sapiens with 4 samples.

Results

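Interferons are signals between cells, many of which announce viral nucleic acid, and each type acts through a pair of receptor chains. The expression of 5 interferon genes (*IFNB1*, *IFNE*, *IFNL1*, *IFNL2* and *IFNG*) and 5 interferon receptor genes (*IFNAR1*, *IFNAR2*, *IFNLR1*, *IFNGR1* and *IFNGR2*) was followed in cells treated with DNA-demethylating drugs. The members were chosen by gene symbol, and all of the gene probes on the array whose RefSeq accession maps to these symbols were used. They came to 14 probes of 10 genes, of 58201 gene probes on the array, 34892 of which could be named and stood for 25006 genes. Of the 14 probes, 5 belonged to interferons and 9 to receptors.

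HML58-3 cells, a derivative of the colon cancer cell line HCT116 in which a methylated marker promoter drives a luciferase reporter, were mock-treated or treated with 1 μM of decitabine (DAC), OR-2003 or OR-2100 from day 1 and collected on day 5. DAC is a cytidine analogue that traps DNA methyltransferases, and OR-2003 and OR-2100 are prodrugs of DAC. All conditions share this 1 derivative line, and each condition is 1 Agilent one-colour array, 4 arrays in all on 1 slide. With 1 array per condition, none of the differences below has a replicate check and no test was run.

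The type I interferons *IFNB1* and *IFNE* signal through *IFNAR1* and *IFNAR2*, the type II interferon *IFNG* through *IFNGR1* and *IFNGR2*, and the type III interferons *IFNL1* and *IFNL2* through *IFNLR1* together with the shared chain *IL10RB*. Kinases of the JAK family bound to these chains activate transcription factors, among them STAT2 with its partner IRF9, that switch on antiviral genes. Epithelial cells are known as producers of, and responders to, type III interferon, and demethylating drugs are known to raise antiviral genes in colon cancer cells. *IFNG* is made mainly by T and NK cells.

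The bases before the annotated starts of *IFNB1*, *IFNL1* and *IFNL2* are shown because factors activated by viral nucleic acid act on such stretches, and because their probes behaved differently on these arrays. Each window is the 250 bases before the start, 5′ to 3′ on the strand of the gene, from RefSeq on GRCh38.p14. They lie at chr9:21077943-21078192 (minus strand) for *IFNB1*, chr19:39296157-39296406 (plus strand) for *IFNL1* and chr19:39268146-39268395 (plus strand) for *IFNL2*. Capitals mark matches to the IRF motif AANNGAAA, read on both strands, and to the κB motif.

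IFNB1: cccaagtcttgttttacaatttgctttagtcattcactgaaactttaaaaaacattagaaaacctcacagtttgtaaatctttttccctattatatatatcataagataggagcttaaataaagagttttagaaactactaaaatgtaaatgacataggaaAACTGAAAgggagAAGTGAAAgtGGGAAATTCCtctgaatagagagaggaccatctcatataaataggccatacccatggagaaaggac

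IFNL1: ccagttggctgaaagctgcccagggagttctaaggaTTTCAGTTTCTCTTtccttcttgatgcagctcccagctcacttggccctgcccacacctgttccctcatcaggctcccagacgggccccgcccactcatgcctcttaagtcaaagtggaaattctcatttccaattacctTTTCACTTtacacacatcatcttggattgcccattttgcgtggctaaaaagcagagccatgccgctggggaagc

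IFNL2: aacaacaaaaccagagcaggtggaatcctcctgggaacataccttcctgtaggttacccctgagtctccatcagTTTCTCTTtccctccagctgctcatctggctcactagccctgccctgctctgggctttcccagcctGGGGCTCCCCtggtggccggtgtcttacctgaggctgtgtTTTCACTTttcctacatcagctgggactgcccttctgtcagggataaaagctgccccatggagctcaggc

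The *IFNB1* window held 2 IRF matches and 1 κB match side by side and 0 CG dinucleotides, the sites of DNA methylation. The *IFNL1* window held 3 IRF matches, 2 of which overlap, and 4 CG dinucleotides. The *IFNL2* window held 2 IRF matches, 1 κB match and 1 CG dinucleotide. Among 34943 RefSeq windows of the same length, 20.3% held an IRF match, 4.55% held 2 or more, 9.95% held a κB match, and the median window held 11 CG dinucleotides. A match describes the letters and not a bound factor.

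The receptor genes stood apart in this respect. The windows of *IFNAR1* held 15 and 23 CG dinucleotides at its 2 annotated starts, that of *IFNLR1* held 24, those of *IFNGR1* held 24 and 19, and that of *IFNGR2* held 37. They held 0 IRF matches, and that of *IFNGR2* held 3 κB matches. The windows of *IFNE* and *IFNG* held 2 CG dinucleotides each, with 0 and 1 IRF matches. No window of *IFNAR2* was used here.

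**Figure D1:**
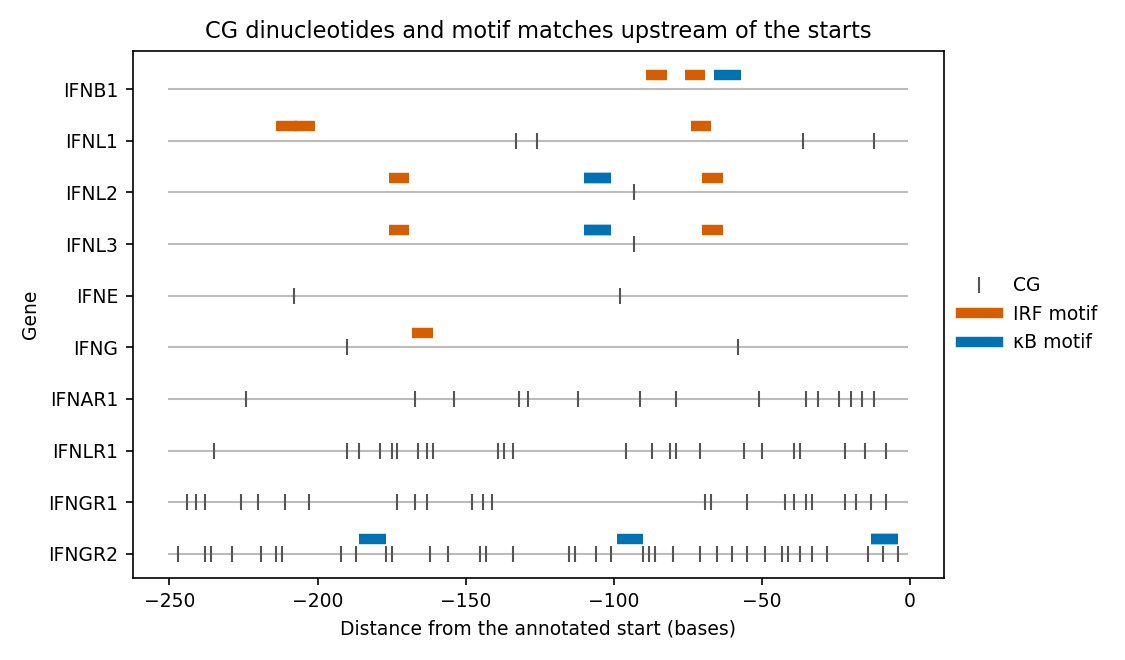
Positions of CG dinucleotides (ticks), IRF motif matches (orange) and κB motif matches (blue) in the 250 bases before the first annotated start of each gene, with distance from the start in bases on the x axis and 1 gene per row. The interferon windows hold 0 to 4 CG dinucleotides and, apart from that of *IFNE*, 1 to 3 IRF matches, whereas the receptor windows hold 15 to 37 CG dinucleotides and 0 IRF matches.

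Levels are log2 intensity relative to the 75th percentile of the array, which is 0, and arrays are always named in the order mock, DAC, OR-2003 and OR-2100. Levels are set side by side only for the same probe, because probes differ in brightness. A probe that the scanner software did not find well above background has no measured level. Between 31601 and 33282 probes were well above background on each array, the lowest of them at -4.29, -4.42, -4.38 and -4.55, and 0 were saturated. A level of -1 or more is taken as positive expression in the methods of the study. A probe was called induced when its level with the drug was -1 or more and at least 2-fold that on the mock array, and reduced was the mirror image with -1 or more on the mock array. The median log2 difference from mock over the named genes well above background on all 4 arrays was -0.18 with DAC, -0.17 with OR-2003 and -0.21 with OR-2100, so that small negative differences are those of a typical gene. The SD between spots of the same probe was taken over 300 probes with 10 spots. It gave an SD of a difference of 0.088 at levels of 0 or more, 0.15 from -2 to 0 and 0.41 under -2. These values rest on 1088, 40 and 36 pairs of probe and array, so that those at lower levels are less certain. They cover technical noise within an array only.

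Type III interferon transcripts were higher with all 3 drugs, whereas *IFNB1* and *IFNG* were not well above background on any array. *IFNL2* rose from a level below positive expression to one above it, and *IFNL1* became detectable with each drug. *IFNE* was lower with each drug than on the mock array. By the calling rule, 1 of the 14 probes was induced with DAC, where 3.44% of all gene probes were, 1 with OR-2003 beside 3.53%, and 1 with OR-2100 beside 3.5%. In each case it was the *IFNL2* probe.

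*IFNL2* (probe A_23_P409438), an interferon lambda, had levels of -1.73, 0.95, 1.04 and 1.30 and was well above background on all 4 arrays. The mock array was the lowest, and the drug arrays lay within 0.35 of each other. The log2 differences of 2.68 with DAC, 2.77 with OR-2003 and 3.03 with OR-2100 correspond to 6.40, 6.82 and 8.15-fold. They fell to 1.76, 1.85 and 2.08 when the background was corrected with normexp, and stayed positive under all of the alternatives run. With scaling to the bright probes alone, those well above background on all arrays, *IFNL2* was no longer called induced with DAC and OR-2003, since all levels lie lower on that scale. *IFNL2* and *IFNL3* are near-identical copies, and their windows before the start are identical at 249 of 250 bases. Whether the probe of either reads both transcripts was not checked, so that the single value of either is uncertain.

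*IFNL1* (probe A_23_P337800), the type III interferon next to *IFNL2* on the chromosome, was dim in mock-treated cells, at -4.59 and not well above background, and was well above it with the drugs, at -1.53, -1.90 and -1.44. Against such a value a fold is only a minimum, computed from the larger of 2 signals, that of the probe itself and the weakest one still called well above background on the array. *IFNL1* was at least 6.74-fold higher with DAC, at least 5.22-fold higher with OR-2003 and at least 7.18-fold higher with OR-2100. It stayed under the level of positive expression and so was not counted as induced. It was the 1 probe of the 14 that was well above background on all 3 drug arrays but not on the mock array, as 4.77% of all gene probes were. With normexp the log2 differences of *IFNL1*, 3.05, 2.68 and 3.14, fell to 0.75, 0.58 and 0.80, so that their size, and the minimum folds given here and below, are those of the software's own background correction.

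*IFNL3*, the third lambda gene of this cluster, is not among the 10 genes but followed the same course. Without drug it was at -6.13, not well above background, and it was at -2.55, -2.35 and -2.17 with the drugs, at least 3.33, 3.83 and 4.33-fold higher. Thus all 3 lambda genes with a probe were higher on each drug array than on the mock array. *LRFN1*, the gene on the other side of *IFNL1*, had levels of 0.65, 0.06, 0.19 and -0.02, and was 1.51, 1.38 and 1.60-fold lower with the drugs.

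*IFNE* (probe A_23_P302060), a type I interferon known for constitutive expression in epithelium of the reproductive tract, had levels of -1.12, -1.96, -2.26 and -1.63. It was well above background on all 4 arrays, with the mock array the highest. It was 1.78-fold lower with DAC, 2.19-fold lower with OR-2003 and 1.42-fold lower with OR-2100. *IFNE* was not called reduced with any drug, since its mock level was itself under -1. With DAC and OR-2100 its difference was also short of 2-fold. Its log2 differences stayed negative under all of the alternatives run, from -0.95 to -0.45 with DAC, from -1.36 to -0.49 with OR-2003 and from -0.60 to -0.28 with OR-2100. *MTAP*, a gene of methionine salvage that neighbours *IFNE*, was likewise lower with the drugs, at 4.96, 3.73, 3.71 and 3.69, and its other 2 probes were lower with each drug too.

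*IFNB1* (probe A_23_P71774), the first type I interferon made upon infection in most cells, lay at -6.44, -6.56, -6.56 and -5.63. None of these values was well above background, so that no fold is given and the somewhat higher value with OR-2100 has no order. *IFNG* (probe A_23_P151294) lay at -6.39, -6.45, -6.44 and -6.61, also not well above background on any array. For a transcript of such a level the array gives no more than an upper limit, which differs from probe to probe.

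The other interferon genes were as dim. Of 17 further interferon genes, 12 had a named probe, and 10 of these, among them *IFNW1* and *IFNA8*, were not well above background on any array. The exceptions were *IFNL3* and *IFNA4*. *IFNA4* was well above background on all 4 arrays at -1.75, -2.46, -2.52 and -2.45, thus 1.64, 1.71 and 1.62-fold lower with the drugs. Genes of the alpha family are near-identical copies, so that this probe may read several of them. Hence among the interferons with a probe, those that were higher with the drugs were of type III. The type I interferons well above background, *IFNE* and *IFNA4*, were lower. Neither was called reduced with any drug, and *IFNA4* was not run under the alternatives.

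**Figure D2:**
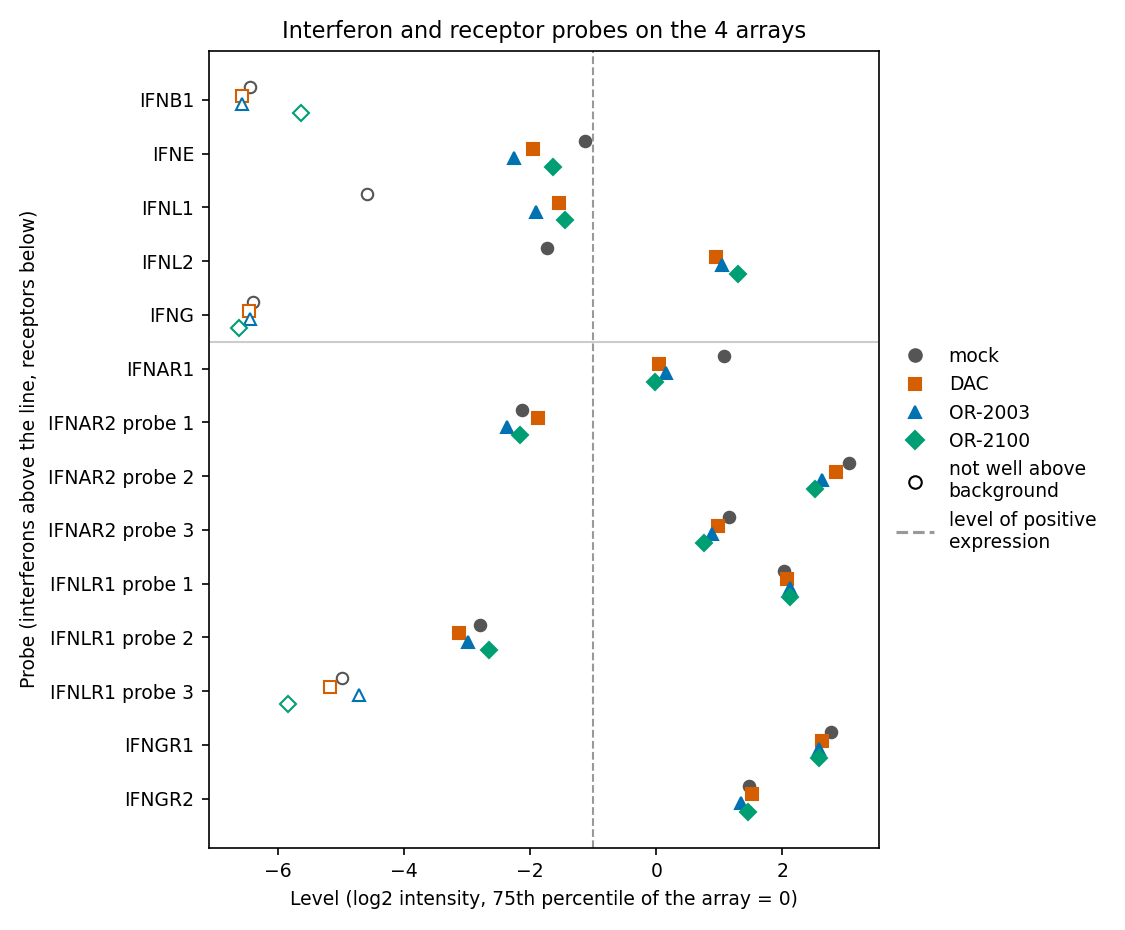
Level (log2 intensity, 75th percentile of the array at 0) of each of the 14 probes on the mock (grey circle), DAC (orange square), OR-2003 (blue triangle) and OR-2100 (green diamond) arrays, with open symbols for values not well above background and a dashed line at -1. *IFNL2* moves from -1.73 to between 0.95 and 1.30, *IFNL1* from an open symbol at -4.59 to between -1.90 and -1.44, and *IFNAR1* from 1.07 to between -0.03 and 0.16, while *IFNB1* and *IFNG* have open symbols on all 4 arrays.

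All 5 receptor genes were expressed on the mock array and with each drug, and most moved little. The 1 receptor with a larger difference was *IFNAR1*, which was lower with each drug. The median log2 difference over the 5 receptor genes was -0.15 with DAC, -0.19 with OR-2003 and -0.20 with OR-2100. Over the named genes well above background on all 4 arrays, as these 5 were, it was -0.18, -0.17 and -0.21. It was -0.12, -0.093 and -0.23 over all named genes, dim ones included. By the calling rule, 1 of the 14 probes was reduced with DAC, where 4.03% of all gene probes were, 0 with OR-2003 beside 4.07%, and 1 with OR-2100 beside 4.49%.

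*IFNAR1* (probe A_33_P3277988), the signalling chain of the type I receptor, had levels of 1.07, 0.05, 0.16 and -0.03. The mock array was the highest and the drug arrays lay within 0.18 of each other. It was 2.03-fold lower with DAC, 1.89-fold lower with OR-2003 and 2.14-fold lower with OR-2100, which puts the values on either side of the 2-fold threshold. The call was lost with normexp and with scaling to the bright probes for both DAC and OR-2100, and with quantile normalization for DAC, although the log2 difference stayed between -1.19 and -0.71 under all of the alternatives run.

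*IFNAR2*, the other chain of the type I receptor, had 3 probes. Its brightest probe, A_33_P3337540, had levels of 3.05, 2.85, 2.63 and 2.52, with log2 differences of -0.21, -0.43 and -0.53. A_33_P3361457 had levels of 1.15, 0.98, 0.88 and 0.75, with differences of -0.17, -0.27 and -0.40. In both, the mock array was the highest and OR-2100 the lowest. The dimmest, A_23_P211080, lay at -2.13, -1.87, -2.36 and -2.15, where DAC was the highest and the differences of 0.25, -0.24 and -0.03 were smaller than the 0.41 given by the noise between spots at levels under -2.

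*IFNLR1*, the chain that binds type III interferon alone, also had 3 probes. The brightest, A_23_P74112, had levels of 2.02, 2.07, 2.12 and 2.12, so that no array stood apart. A_24_P19677 had levels of -2.79, -3.12, -2.98 and -2.65, and A_33_P3268612, between -5.83 and -4.71, was not well above background on any array. The differences of the brightest probe were 0.05, 0.10 and 0.10, and over the alternatives those of the gene ranged from -0.21 to 0.32 and took either sign. Its partner chain *IL10RB*, which also serves the receptor of IL-10, had levels of 1.02, 1.09, 1.24 and 1.22, with differences of 0.07, 0.22 and 0.20. Thus both chains of the type III receptor were present on the mock array, at levels of positive expression, and with the drugs.

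*IFNGR1*, the binding chain of the type II receptor, had levels of 2.77, 2.62, 2.58 and 2.57 (probe A_23_P8281). *IFNGR2*, its signalling chain, had levels of 1.46, 1.52, 1.34 and 1.45 (probe A_23_P29036). The differences were -0.15, -0.19 and -0.20 for *IFNGR1* and 0.05, -0.13 and -0.01 for *IFNGR2*. With other scalings either gene could take either sign with each drug. *IFNAR2*, *IL10RB*, *IFNAR1* and *IFNGR2* lie one after the other on the chromosome, and of these 4 neighbours *IFNAR1* had the largest difference.

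The 3 drugs gave like levels. The 10 probes of the 14 that were well above background on all 4 arrays held 0 pairs of values 2-fold or more apart between DAC and OR-2003, where 0.0788% of 27921 such probes were, 0 between DAC and OR-2100, where 0.24% were, and 0 between OR-2003 and OR-2100, where 0.516% were. The spread was widest for *IFNE*, with 0.63 on the log2 scale between OR-2003 and OR-2100. No interval can be given for these differences with 1 array each, so they do not show that the drugs act alike.

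**Figure D3:**
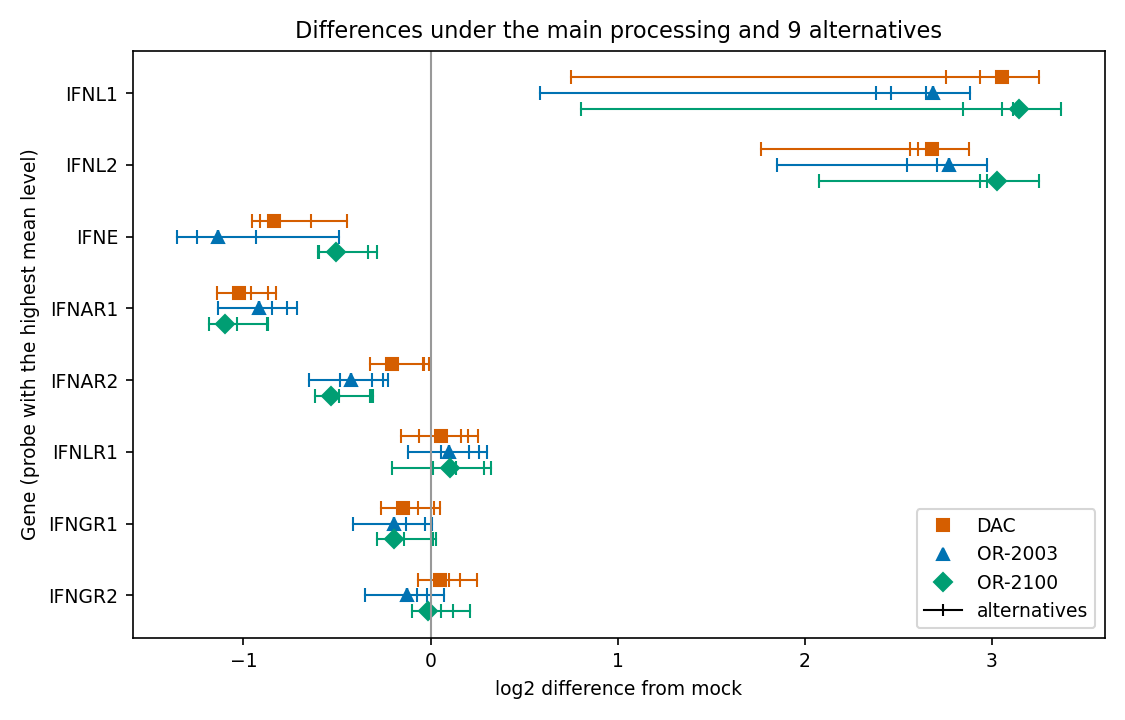
log2 difference from mock of 8 genes with DAC (square), OR-2003 (triangle) and OR-2100 (diamond), where symbols are the values as reported, ticks the values under 9 alternative ways of processing and lines their range. *IFNL1* and *IFNL2* stay above 0 and *IFNE*, *IFNAR1* and *IFNAR2* below 0 throughout, while *IFNLR1*, *IFNGR1* and *IFNGR2* lie on both sides of 0.

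Downstream of the receptors, 6 kinases and factors were described, all well above background on all 4 arrays, and 0 of them were induced or reduced with any drug. Over all named genes, read by the same rule for this and the lists that follow, 5.77% were induced and 5.96% reduced with DAC, 5.89% and 6.05% with OR-2003, and 5.81% and 6.82% with OR-2100. *TYK2*, the kinase bound to IFNAR1, had levels of -0.55, -0.24, -0.41 and -0.17. *JAK1*, the kinase shared by the receptors of all 3 types, had levels of 0.49, -0.23, -0.29 and -0.15, or 1.64, 1.71 and 1.55-fold lower. The 2 probes of *STAT3* moved in opposite directions, from 0.83 to 0.45, 0.53 and 0.50 in one and from -0.37 to -0.06, -0.04 and -0.09 in the other.

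Of 8 feedback inhibitors, 2 were induced with each drug, where 5.77% to 5.89% of all named genes were, and 0 were reduced. *SOCS1*, an inhibitor of JAK kinases, had levels of -0.45, 0.99, 0.97 and 1.14. *USP18*, which binds IFNAR2 and dampens type I signalling, had levels of 0.83, 2.50, 2.25 and 2.71, or 3.18, 2.67 and 3.67-fold higher. *PTPN6*, a phosphatase, was lower, at 1.00, 0.35, 0.17 and 0.24.

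Of 18 genes that sense nucleic acid or induce interferon genes, 4 were induced with each drug, where 5.77% to 5.89% of all named genes were. Reduced were 1 with DAC, 0 with OR-2003 and 1 with OR-2100, beside 5.96%, 6.05% and 6.82% of all named genes. *DHX58*, a regulator of RNA sensing, had levels of -0.03, 2.84, 2.70 and 3.00. *IRF7*, a factor that acts on interferon promoters, had levels of 4.14, 6.14, 6.15 and 6.35. *IFIH1*, a sensor of double-stranded RNA, had levels of 1.84, 3.55, 3.35 and 3.77. All 3 of these genes are also known as interferon-responsive. *CGAS*, a DNA sensor, was not well above background without drug, at -4.60, and reached 0.19, 0.18 and 0.33, at least 22.3, 22.2 and 24.6-fold higher. *IKBKE*, a kinase of the same pathway, went from -4.80, not well above background, to -3.47, -3.27 and -3.52. It was thus at least 1.75, 2.02 and 1.70-fold higher, far less than *CGAS*. The reduced gene was *STING1*, the adaptor below *CGAS*, with levels of 3.78, 2.59, 2.80 and 2.53, named here after its value was seen. The median log2 difference of the 18 genes was 0.63, 0.62 and 0.60.

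The genes known to respond to type I and type III interferon were higher with the drugs as a group. Of 28 such genes on the array, 20 were induced with DAC, where 5.77% of named genes were, 19 with OR-2003 beside 5.89%, and 21 with OR-2100 beside 5.81%, and 0 were reduced. All 28 were higher on each drug array than on the mock array, and 19 were induced by all 3 drugs. The median log2 difference was 2.19, 2.14 and 2.44, and 1.99, 1.85 and 2.17 with dim values raised to the background limit. The list was chosen knowing that interferon pathway genes were high in these samples, so that its direction is not independent evidence.

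*MX1*, a GTPase that blocks viral replication, went from -1.35 on the mock array to 4.63, 4.45 and 4.89. *IFI44* went from -2.01 to 1.57, 1.29 and 1.83, and *IFI6*, a mitochondrial protein, from 3.37 to 6.28, 6.24 and 6.61. In each the mock array was far below the drug arrays, and OR-2100 was the highest. Without drug 6 of the 28 were not well above background, of which *XAF1*, *MX2* and *OAS1* reached the highest levels with drugs. *XAF1*, a pro-apoptotic gene, was at least 28.9, 25.3 and 37.4-fold higher, and its second probe moved the same way. *MX2*, a block to retroviruses, was at least 23.4-fold higher with each drug, and *OAS1*, which activates RNase L, at least 10.4, 8.21 and 12.7-fold with DAC, OR-2003 and OR-2100.

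Genes known to respond mainly to *IFNG* were divided. Of 16 on the array, 3 were induced with DAC, 4 with OR-2003 and 4 with OR-2100, beside 5.77%, 5.89% and 5.81% of all named genes, and 1, 0 and 1 were reduced, beside 5.96%, 6.05% and 6.82%. The median log2 difference was 1.04, 0.96 and 1.13, but 0.00, 0.01 and 0.06 with dim values raised to the background limit, so it rests on values below background. *GBP2*, a guanylate-binding protein, had levels of -3.27, 0.02, 0.16 and 0.14. *ICAM1*, an adhesion molecule also under NF-κB, had levels of -0.30, 2.01, 1.92 and 2.12. *HLA-DRA*, an MHC class II chain and a classical *IFNG* target, was in contrast lower, at -2.04, -3.70, -3.67 and -3.78, or 3.17, 3.11 and 3.35-fold. Another class II chain, *HLA-DPA1*, was 1.96, 2.36 and 2.32-fold higher by its brightest probe, at -0.99, -0.02, 0.25 and 0.22, and its second probe lay at -0.68, -0.44, -0.50 and -0.47. *GBP5* was at least 27.1, 27.1 and 25.3-fold higher, whereas *GBP1* and *CXCL10* (both probes) were not well above background on any array. The reduced gene was *WARS1*, with levels of 3.81, 2.76, 2.88 and 2.72. *HLA-DPA1*, *GBP1*, *CXCL10* and *WARS1* were named after their values were seen.

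**Figure D4:**
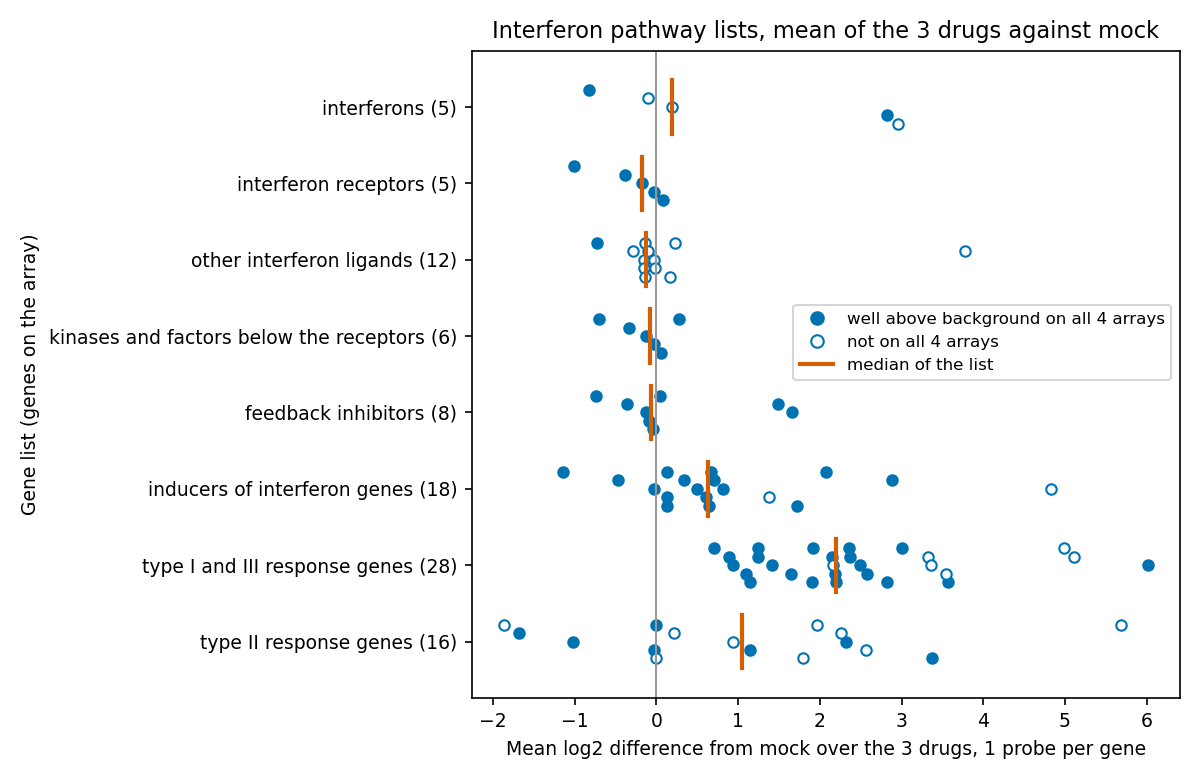
Mean log2 difference from mock over the 3 drugs for each gene (1 probe per gene) of 8 lists, given with the number of genes on the array, with open circles for genes not well above background on all 4 arrays, whose position is not a measured size, and a line at the median of the list. The type I and III response genes all lie above 0 around a median near 2.2, while the receptors and the kinases and factors lie close to 0 apart from *IFNAR1* and *JAK1*.

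The labelled origin was set against defining markers. Of 10 colon epithelial markers, 8 were well above background without drug, including *EPCAM*, *KRT8*, *KRT18*, *KRT19*, *CDH1* and *CDX2*, and 10 with the drugs. *KRT20* and *VIL1*, markers of differentiated cells, were not well above background without drug. The summed level of the 10 markers was 10.4 on the mock array and 10.6 to 10.7 with the drugs on the log2 scale. That sum follows the brightest probes, *KRT19* and *KRT18*. Of the 10 markers, 7 were higher on each drug array than on the mock array. *LGALS4*, a lectin of gut epithelium, was induced with each drug, 4.76, 5.94 and 6.14-fold, and *KRT20* went from -4.76 to -1.30, -1.16 and -1.48, well above background with each drug. *EPCAM* and *CDH1* were reduced with each drug. In RNA of a whole culture, fewer cells that make a transcript and less RNA per cell cannot be told apart.

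Markers of cells that make interferon moved in part. Of 10 T and NK cell markers, 5 were well above background without drug, 8 with DAC, 9 with OR-2003 and 10 with OR-2100. Their log2 summed level was 0.43 on the mock array and 2.66 to 2.76 with the drugs. That sum follows the brightest probes, with the drugs *CD3D* and *TBX21*. Of the 10, 7 were higher on each drug array than on the mock array, dim values included, and 1 was lower. *CD8A* was lower with DAC and OR-2003 by both of its probes. The markers called induced were *CD3D*, at -2.81, 1.82, 1.97 and 1.89, and *TBX21*, a factor known to activate *IFNG*, which went from a value not well above background to 0.35, 0.38 and 0.45. *GZMB* was 2.68, 2.67 and 2.20-fold higher and *NKG7* 1.60, 2.05 and 1.67-fold, both under -1 on every array. *CD247* and the brightest *KLRD1* probe were well above background with each drug but not without. The brightest *PTPRC* probe, for the CD45 of all white blood cells, lay at -1.48, -1.79, -1.75 and -1.64. Of the 5 *PTPRC* probes, 2 were dim on every array, and another was well above background with the drugs but not without. The remaining *PTPRC* probe lay at -2.46, -3.49, -2.88 and -3.65. *CD3E* was well above background with OR-2100 alone, at -3.85. Of 3 markers of plasmacytoid dendritic cells, known producers of type I interferon, *CLEC4C* was not well above background on any array, *LILRA4* and *IL3RA* were well above it on all 4, between -3.65 and -3.06 and between -4.11 and -3.65, and the log2 summed level was between -2.70 and -2.24. All 4 samples are labelled as the cultured line HML58-3. The part of these marker transcripts in the levels of the interferon genes was not tested.

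The genes whose differences lay closest to those of *IFNL2* were sought among 15976 named genes well above background on all 4 arrays, by Euclidean distance over the 3 log2 differences from mock. They were *MEI1* at a distance of 0.086, with differences of 2.74, 2.75 and 2.97, *EID3* at 0.098, with 2.73, 2.77 and 2.94, and *ME3* at 0.12, with 2.74, 2.76 and 3.13. The 3 differences share the mock array, so that the likeness is a description.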

How the data were processed

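Total RNA of HML58-3 cells was labelled with Cy3 and hybridised to SurePrint G3 8x60K v3 arrays, 1 per condition, on 1 slide and in 1 scan run. Spot intensity values, background-subtracted by the authors with Feature Extraction 12.1.0.3 but not normalized across arrays, were deposited, and a series table repeats them. Control spots, and the 52 to 98 gene spots per array that the software marked as non-uniform or as outliers, were left out here. Spots of a probe were averaged as log2 values, and each array was scaled so that its 75th percentile over gene probes was 0, after the methods of the study. A probe was well above background if the software said so of more than 0.5 of its spots. Probes were named through accessions in a RefSeq gene table, and gene lists use the probe with the highest mean level.

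The members and lists were chosen with earlier results of these data known. Named are all members, *IL10RB*, in each list the 3 genes with the largest mean difference among those well above background on all arrays and up to 3 with the highest level with drugs among those dim on the mock array, the nearest neighbours, the 3 genes closest to *IFNL2* in pattern, and defining markers; a few others are marked as chosen later. The calling rule was tested on simulated data, with 4-fold changes in probes at levels above 0. That check does not cover dim probes or differences near the 2-fold threshold. Alternatives were quantile normalization, normexp with an offset of 50, scaling to the 75th percentile of bright probes alone (those well above background on all arrays), median scaling, marked spots kept, the series table, values raised to the background limit, dim probes left out, averaging all probes of a gene, a 4-fold threshold and no level threshold. The number of arrays limits the precision. Python 3.11.15, numpy 2.4.6, pandas 2.3.3, matplotlib 3.10.9, R 4.3.3 and limma 3.58.1 were used. Methylation arrays were not analysed here, and a further item of the signalling list is not reported here.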

Additional observations from a re-analysis of the deposited data

How the results depend on the processing

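Of 264 differences of single genes recomputed under alternatives, 190 moved by less than the noise between spots, 74 moved by more and 0 reversed a called value. The 190 are no measure of stability, since several alternatives could hardly move a value. The series table repeats the same values, and keeping marked spots or leaving out dim probes moved none beyond that noise. Most of the 74 arose with normexp, quantile normalization, scaling to the bright probes or median scaling. Only *IFNL2* and *IFNAR1* had called values that could reverse. With normexp, 0 probes were reduced with DAC and 0 with OR-2100. With quantile normalization, 0 were reduced with DAC, and the receptor medians were 0.019 with DAC, -0.029 with OR-2003 and 0.014 with OR-2100. With scaling to the bright probes (those well above background on all arrays), 0 probes were induced with DAC and 0 with OR-2003, 0 were reduced with DAC and 0 with OR-2100, and the receptor medians were 0.051, 0.0076 and 0.028. With median scaling, the receptor medians were -0.26, -0.42 and -0.28, and 1 probe was reduced with OR-2003. At 4-fold, 0 probes were reduced with DAC and 0 with OR-2100, and the response genes induced fell to 13 with DAC, 11 with OR-2003 and 14 with OR-2100. They also fell at the 2-fold threshold, to 17, 15 and 18 with normexp and 14, 13 and 15 with scaling to the bright probes. They were 19, 15 and 21 with median scaling, and 18, 17 and 18 when the probes of a gene were averaged. Without the level threshold they rose to 25, 25 and 26. Without the level threshold, 2 probes were induced with DAC, 2 with OR-2003 and 2 with OR-2100, *IFNL1* being the second, and 1, *IFNE*, was reduced with OR-2003. Apart from the changed thresholds, and the levels of *IFNL2* that lie lower when scaled to the bright probes, the cause was not tested. Of all called probes, 46.0%, 46.4% and 43.8% were induced rather than reduced with DAC, OR-2003 and OR-2100, against 58.4%, 58.5% and 56.4% with scaling to the bright probes and 37.4%, 30.6% and 37.8% with median scaling. No paired analysis was possible because a condition is a single array, so that no test was made and no replicate could be left out. Dim values on the mock array limit the folds of *IFNL1* and *IFNL3* to lower bounds.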

Other observations

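Probes that the array design names after interferon loci, chosen after their values were seen, were read as well. The probe of the long non-coding transcript lnc-IFNG-2:1 was dim in mock-treated cells, at -6.20, and was well above background at -0.46 with DAC, -0.53 with OR-2003 and -0.16 with OR-2100. Both probes of *IFNG-AS1*, the antisense gene beside *IFNG*, were not well above background on any array, nor were the probes of lnc-IFNG-3:1, lnc-IFNAR2-1:1 and lnc-IFNK-2:1. *IL10RB-DT* was well above background on 1 array, that of DAC, at -4.05.

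Neighbours of the interferon and receptor genes that the report leaves out also differed. *HACD4*, next to *IFNB1*, was dim in mock-treated cells, at -5.03, and well above background at -2.62 with DAC, -2.78 with OR-2003 and -2.32 with OR-2100, at least 3.17, 2.84 and 3.91-fold higher. *IL22RA1*, a chain of the interleukin-22 receptor next to *IFNLR1*, was 1.87, 1.73 and 1.91-fold higher, from -0.46 to 0.44, 0.32 and 0.47. On its other side, the non-coding *LINC02800* went from a value not well above background, -4.85, to -2.06, -2.44 and -2.42. *IL26*, next to *IFNG*, stayed between -4.25 and -3.83, and *DNAJC28*, next to *IFNGR2*, between -2.38 and -2.09. *LINC01548*, next to *IFNAR2*, and LOC102723633, next to *IFNGR1*, were not well above background on any array, and *IL22RA2*, on the other side of *IFNGR1*, was so on 2 of 4.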
